A study of Mus musculus with 6 samples.

Results

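The 10 genes Eomes, Mixl1, Gsc, Mesp1, Tbx6, Foxa2, Sox17, Sox7, Gata4 and Gata6 encode transcription factors of the mesoderm and the endoderm. They were followed in mouse embryonic stem cells (ESCs) in which a short hairpin RNA (shRNA) lowered Chd4 or Mbd3, beside cells with a control shRNA. Each was taken from the probe set whose only gene symbol it was, with 1 probe set per gene, and they stand among 22180 genes named in the same way. Both targets encode subunits of NuRD, a complex that remodels nucleosomes and deacetylates histones: CHD4 is its ATPase and MBD3 a scaffold subunit. The 6 groups were Chd4-knockdown, Mbd3-knockdown and control cells, each as ESCs grown on gelatin with serum and leukemia inhibitory factor (day 0), and after 4 days as aggregates in serum-replacement medium for neural differentiation (day 4). All 3 lines were made by lentiviral infection. The labels name neither the ESC line nor a number of cultures.

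Each group was measured on 1 Mouse Gene 2.0 ST array, so a difference between 2 arrays has no replicate check and precision is limited by their number. The question put to the 10 genes was whether the knockdown cells carried more RNA of factors of another lineage.

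In the embryo, mesoderm and definitive endoderm arise from the primitive streak under Nodal, WNT and BMP signals. Eomes, a T-box factor, and Mixl1 and Gsc, both homeobox factors, act early in cells that can form either layer. Mesp1, a basic helix-loop-helix factor, and Tbx6, a T-box factor, mark mesoderm of the heart and of the somites. Foxa2 and Sox17 specify endoderm, and Foxa2 is also a gene of the notochord and of the floor plate of the neural tube. Gata6, Gata4, Sox17 and Sox7 act in primitive endoderm, the layer that separates from the epiblast before implantation, and Gata6 can by itself drive mouse stem cells towards it.

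The knockdowns were checked on their targets. In the Chd4 line the Chd4 probe set stood at 29.8% of control at day 0 and 71.3% at day 4, and the Mbd3 probe set at 43.0% and 75.5% in the Mbd3 line on the same days. Markers of stem cells (Pou5f1, Sox2, Nanog, Zfp42 and Esrrb) were all above the array medians on all 6 arrays. Sox1, Pax6, Nes, Fabp7 and Hes5, 5 markers of neural progenitors, had a summed intensity of 433 in Chd4-knockdown, 686 in Mbd3-knockdown and 3357 in control cells at day 4. Array medians over 34351 probe sets ran from 39.6 to 41.4.

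Promoter sequence was available in the RefSeq table for 5 of the 10 genes. Shown are windows of Foxa2 and Eomes, the factors with the largest differences between the days in control cells. Each window runs from 250 bases before to 50 bases after an annotated transcription start (build GRCm38.p6), and capitals mark a match to AGATAA, a sequence bound by GATA factors. The Foxa2 window lies on the minus strand at chr2:148045415-148045714 and is 1 of 3 for this gene, and the Eomes window on the plus strand at chr9:118477939-118478238.
Foxa2: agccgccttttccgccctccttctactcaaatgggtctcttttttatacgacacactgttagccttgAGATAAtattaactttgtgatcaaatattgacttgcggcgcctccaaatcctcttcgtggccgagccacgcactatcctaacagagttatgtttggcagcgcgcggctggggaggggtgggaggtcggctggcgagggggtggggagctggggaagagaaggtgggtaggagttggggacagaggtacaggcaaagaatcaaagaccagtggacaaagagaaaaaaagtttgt
Eomes: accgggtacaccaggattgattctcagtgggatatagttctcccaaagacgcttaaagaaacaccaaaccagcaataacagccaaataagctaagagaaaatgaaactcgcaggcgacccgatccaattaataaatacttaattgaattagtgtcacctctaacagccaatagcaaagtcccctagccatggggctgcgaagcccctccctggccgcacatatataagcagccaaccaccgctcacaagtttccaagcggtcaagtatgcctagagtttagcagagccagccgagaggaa
The match in Foxa2 begins 183 bases before the start. The 6 motifs searched on both strands were AGATAA for the zinc-finger family of Gata6, TCACAC for T-box factors, TGTTTAC for forkhead factors, ACAATG for SOX factors, TAATCC for homeodomains of the Gsc type and TAATTA for those of the Mixl1 type. Neither the Eomes window nor the other two Foxa2 windows held any of them. AGATAA was found in 11.2% of all 32851 promoter windows of this length, and a match is a description of letters, not of binding. The Mesp1 window held TCACAC and the Tbx6 window TAATTA, found in 14.5% and 5.29% of all windows, and the Gsc window held none of the 6.

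The 10 factors were dim and differed little between the arrays. Values are intensities on the linear scale that the authors deposited. The highest of the 6 array medians, 41.4, was used as a floor: where the dimmer of 2 intensities lay under it, a difference is also given against 41.4 as "at least". No detection call was used, and intensities of different probe sets are not comparable as amounts of RNA. Eomes, Gsc, Tbx6, Foxa2 and Gata4, 5 of the 10, were above 41.4 on all 6 arrays, Mesp1 was below it on all 6, and the other four crossed it. The highest intensity of any factor on any array was 116, that of Foxa2 in control cells at day 4. Over the 6 arrays the range of log2 intensity had a median of 0.31 among the 10 factors and of 0.39 among all 22180 genes. Gata6 was the 1 factor whose range reached 1 on the log2 scale, which is 2-fold; 14% of all genes had such a range.

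**Figure D1:**
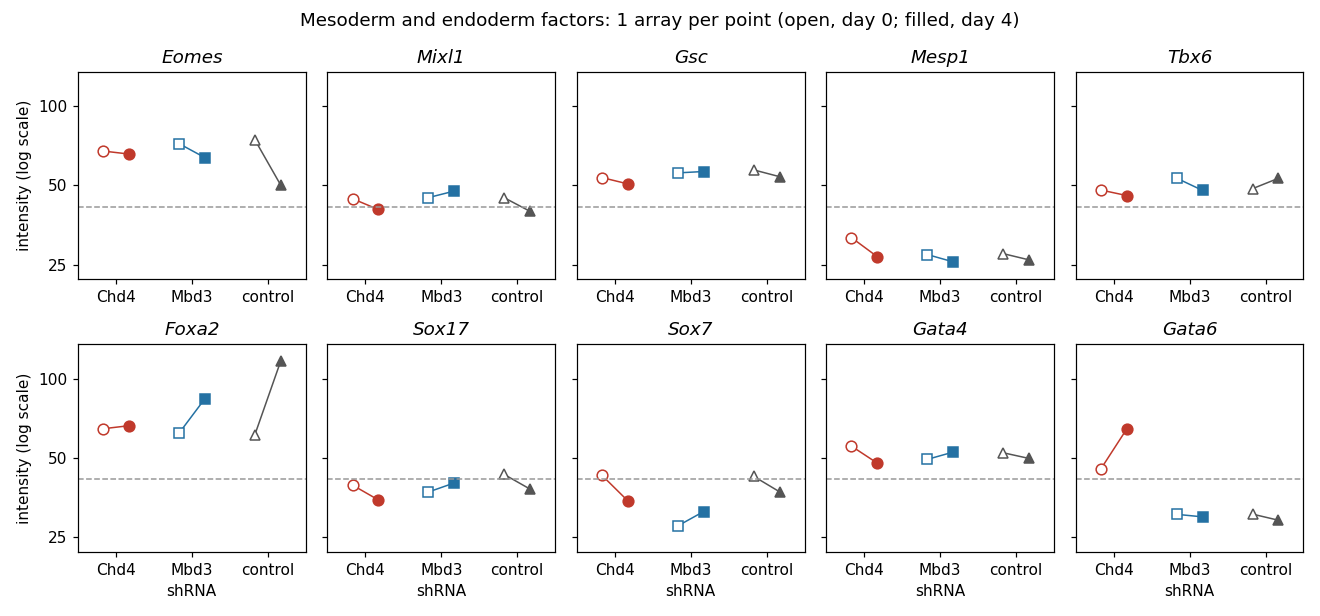
Intensity of each of the 10 factors (vertical axis, log scale) in Chd4-knockdown, Mbd3-knockdown and control cells, with 1 array per point, open at day 0 and filled at day 4. The dashed line is 41.4, the highest array median; Gata6 lies above it in both Chd4-knockdown arrays alone, and Foxa2 is highest in control cells at day 4.

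Among the early factors shared by mesoderm and endoderm, Eomes had intensities at day 0 of 67.6 in Chd4-knockdown, 72.1 in Mbd3-knockdown and 74.7 in control cells. At day 4 it stood at 65.8 in Chd4-knockdown, 63.8 in Mbd3-knockdown and 50.3 in control cells. Control cells at day 4 were thus the lowest of the 6 arrays and control cells at day 0 the highest. Between day 4 and day 0 the log2 difference was -0.04 in Chd4-knockdown, -0.18 in Mbd3-knockdown and -0.57 in control cells. Against control at day 4, Eomes was 1.31-fold higher in the Chd4 line and 1.27-fold higher in the Mbd3 knockdown, differences that share the control array.

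Mixl1 had 44.5, 45.0 and 44.9 in Chd4-knockdown, Mbd3-knockdown and control cells at day 0, and 40.5, 47.6 and 39.9 at day 4. These values lay near the array medians throughout, and its log2 differences from control stayed between -0.01 and 0.26. Gsc had 53.6, 55.8 and 57.3 at day 0 and 50.7, 56.5 and 54.0 at day 4, in the same order of lines. With a log2 range of 0.18 over the 6 arrays, it varied least of the 10 factors.

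Of the mesoderm factors, Mesp1 had 31.7, 27.3 and 27.6 in Chd4-knockdown, Mbd3-knockdown and control cells at day 0, and 26.8, 25.6 and 26.1 at day 4. All 6 values were below 41.4, so no fold is given. Tbx6 had 48.1, 53.3 and 48.7 at day 0 and 45.8, 47.9 and 53.3 at day 4. At day 4 it was thus highest in control cells, with log2 differences of -0.22 in the Chd4 line and -0.15 in the Mbd3 line.

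Foxa2, the forkhead factor of endoderm and floor plate, had 64.6 in Chd4-knockdown, 62.0 in Mbd3-knockdown and 61.1 in control cells at day 0. At day 4 it stood at 66.3 in Chd4-knockdown, 83.8 in Mbd3-knockdown and 116 in control cells. The 3 lines were close at day 0 and far apart at day 4, with the control array highest. The log2 difference between day 4 and day 0 was 0.04 in Chd4-knockdown, 0.43 in Mbd3-knockdown and 0.93 in control cells. Against control at day 4, Foxa2 was at 57.0% in the Chd4 line and 72.1% in the Mbd3 line. In control cells the step was 1.90-fold, just under the 2-fold threshold. Its paralog Foxa1 had 58.8, 68.7 and 85.4 in Chd4-knockdown, Mbd3-knockdown and control cells at day 4, in the same order as Foxa2. Shh, which Foxa2-positive floor plate and notochord secrete, was below 41.4 in all 3 lines at day 4, with 27.0, 25.2 and 28.7. In bulk RNA, a difference in the number of Foxa2-positive cells and one in RNA per cell cannot be told apart, and this holds for every gene below.

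Of the SOX factors of endoderm, Sox17 had 39.4, 37.1 and 43.3 in Chd4-knockdown, Mbd3-knockdown and control cells at day 0, and 34.7, 40.2 and 38.1 at day 4. Of the 6 arrays 1, control at day 0, lay above 41.4. Sox7 had 43.0, 27.6 and 42.6 at day 0 and 34.4, 31.3 and 37.2 at day 4. Both Mbd3-knockdown arrays were the lowest of their day. The day 0 log2 difference of Sox7 in the Mbd3 knockdown was -0.62, but against the floor of 41.4 the bound was only at least 1.03-fold lower, since both intensities lay close to or under the array medians.

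Gata4, a zinc-finger factor of primitive endoderm and heart, had 55.5, 49.4 and 52.3 in Chd4-knockdown, Mbd3-knockdown and control cells at day 0, and 47.8, 52.6 and 49.8 at day 4. No line stood apart. Gata6, which acts before Gata4 in primitive endoderm, did. It had 45.5 in Chd4-knockdown, 30.5 in Mbd3-knockdown and 30.6 in control cells at day 0. At day 4 it had 64.4 in Chd4-knockdown, 29.9 in Mbd3-knockdown and 29.0 in control cells. Both Chd4-knockdown arrays lay above 41.4, and the other four arrays lay between 29.0 and 30.6. Gata6 therefore entered comparisons only through Chd4-knockdown arrays.

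Against control, Gata6 in the Chd4 knockdown was 1.49-fold higher at day 0 and 2.22-fold higher at day 4, or at least 1.10-fold and at least 1.55-fold with the control set to the floor. Within the Chd4 line, day 4 exceeded day 0 by 1.42-fold. The Chd4 probe set itself was closer to control at day 4 than at day 0 in this line (71.3% against 29.8%). Of all genes compared, 0.692% were higher by 2-fold in the Chd4 knockdown at day 0 and 5.08% at day 4. A larger difference at day 4 was thus not particular to Gata6. A link between the levels of Chd4 and Gata6 was not tested.

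Counts past 2-fold were set against all genes compared. A gene entered a comparison where the brighter of its 2 arrays reached that array's median. In Chd4-knockdown against control cells at day 4, 6 of the 10 factors entered; Gata6 was the 1 factor higher by 2-fold, where 5.08% of all genes were, and 0 were lower, where 6.64% were. In Mbd3-knockdown against control cells at day 4, of the 6 that entered, 0 were higher and 0 lower, against 3.44% and 4.89% of all genes. At day 0, 9 factors entered for the Chd4 knockdown and 8 for the Mbd3 knockdown, and 0 passed in either direction. The shares of all genes were 0.692% higher and 0.565% lower for Chd4, and 0.366% higher and 0.314% lower for Mbd3.

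Between day 4 and day 0, 8 factors entered in the Chd4 knockdown, 6 in the Mbd3 knockdown and 8 in control cells, and 0 passed 2-fold in any line. Of all genes, 1.7% were higher and 1.16% lower in the Chd4 knockdown, 1.6% higher and 1.1% lower in the Mbd3 knockdown, and 8.13% higher and 4.7% lower in control cells. The 10 factors had a median log2 difference from control of -0.08 in the Chd4 line and 0.05 in the Mbd3 line at day 4, beside 0.0014 and -0.00040 over all genes. With values under 41.4 set to it, the median of the 10 factors was 0 in both lines. Nothing particular to the 10 factors is read from counts of 0 and 1 among so few genes.

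**Figure D2:**
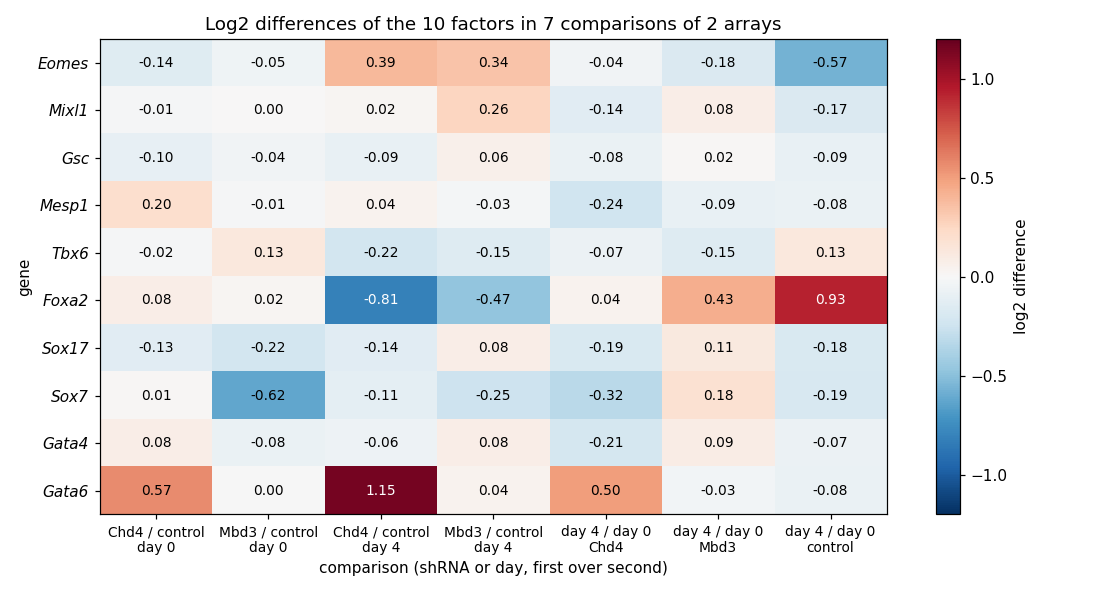
Log2 difference of each factor (rows) in the 7 comparisons of 2 arrays (columns), the first named over the second, printed in each cell. The cell of Gata6 in Chd4-knockdown over control at day 4, 1.15, is the 1 value past 1 in size; Foxa2 reaches 0.93 between the days in control cells.

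An additive model of shRNA and day was also fitted to all 6 arrays with limma, over the 12926 genes whose mean reached the median. It takes the departure of the arrays from additive effects as error, with 2 residual degrees of freedom. Of the 10 factors 6 were tested, and 0 had a p under 0.05 after Benjamini-Hochberg adjustment between the days or for either knockdown. Of all genes, 0 (0%) were called in each of these 3 contrasts as well, with 1962, 1014 and 647 genes at an unadjusted p under 0.05 for day, Chd4 and Mbd3. The lowest p among the factors was that of Foxa2 between the days, with a log2 difference of 0.47 ± 0.20 (SE) and an adjusted p of 0.37. An effect of day in 1 line counts as error in this model, so these values do not show that Foxa2 stayed level. Gata6 was too dim to be tested. With no filter on dim genes its Chd4 effect was 0.86 ± 0.18 (SE), with an unadjusted p of 0.012 and an adjusted p of 0.65. In that fit 1636 of 22180 genes had an unadjusted p under 0.05 for Chd4. The Gata6 intensities of control and Mbd3-knockdown cells lay under 41.4.

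The 3 genes with the pattern closest to that of Gata6 over the 6 arrays were Gm364 (Pearson r = 0.983), Rgs5 (0.983) and Bgn (0.980), among 2882 genes that were bright enough and ranged over 2-fold. Rgs5 encodes a regulator of G-protein signaling and Bgn the proteoglycan biglycan. Bgn had 244 in Chd4-knockdown, 72.0 in Mbd3-knockdown and 77.0 in control cells at day 0, and 357, 82.2 and 78.1 at day 4. Rgs5 had 81.1, 49.5 and 43.6 at day 0, and 140, 35.8 and 35.8 at day 4. Gm364 had 55.9, 25.3 and 29.8 at day 0, and 209, 27.2 and 23.7 at day 4. Like Gata6, it lay above 41.4 in Chd4-knockdown arrays alone, so it was bright enough only through them. The likeness was picked as the highest of many over 6 points and is a description.

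**Figure D3:**
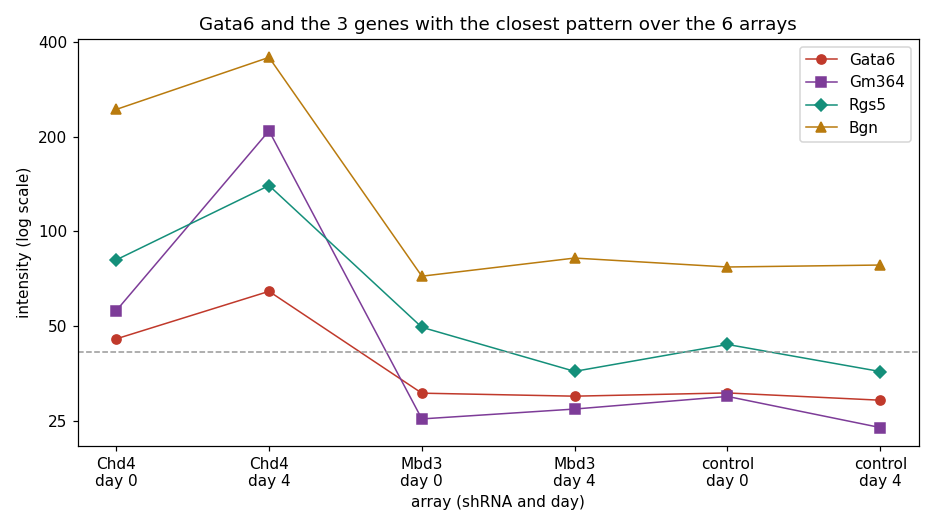
Intensity (log scale) of Gata6 and of Gm364, Rgs5 and Bgn on the 6 arrays, with lines joining the values of a gene and the dashed line at 41.4. All 4 genes are highest in Chd4-knockdown cells at day 4 and next highest in Chd4-knockdown cells at day 0.

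Effector genes of primitive endoderm were read beside Gata6. Of 22 such genes, 17 entered in the Chd4 knockdown against control at day 4. Of these, 2 were higher by 2-fold (Lamb1 and Srgn) and 3 lower (Lama1, Plat and Fst), beside 5.08% and 6.64% of all genes. In the Mbd3 knockdown 17 entered, and 3 were higher and 3 lower, beside 3.44% and 4.89%. The list medians were 0.14 in the Chd4 line and -0.05 in the Mbd3 line, or 0 and -0.02 with values under 41.4 set to it. Dab2, an endocytic adaptor of primitive endoderm, had 236 in Chd4-knockdown, 219 in Mbd3-knockdown and 137 in control cells at day 4. It was thus 1.72-fold higher than control in the Chd4 and 1.59-fold higher in the Mbd3 knockdown. Gata6 on those arrays had 64.4 and 29.9, against 29.0 in control cells, and a link between the levels of Dab2 and Gata6 was not tested. Srgn, a proteoglycan core protein, had 113, 88.8 and 30.4, or at least 2.72-fold and 2.14-fold above control. Lama1, a laminin chain of the basement membrane that primitive endoderm lays down, had 59.6, 62.9 and 191. Pdgfra, a receptor of early primitive endoderm, had 68.8 in Chd4-knockdown, 40.8 in Mbd3-knockdown and 56.6 in control cells. The 5 primitive endoderm markers Dab2, Sparc, Lama1, Col4a1 and Pdgfra summed to 801 in Chd4-knockdown, 629 in Mbd3-knockdown and 791 in control cells at day 4, and to 753, 656 and 758 at day 0. All 5 lay above 41.4 in both Chd4-knockdown arrays and in both control arrays. Sparc alone made up 379, 233 and 324 of the day 4 sums, in the same order of lines. The part of other cells in the Gata6 difference was not tested.

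Genes of the streak and nascent mesoderm were lower in both knockdowns at day 4 where they passed 2-fold. Of 23 genes, 16 entered in the Chd4 and 14 in the Mbd3 comparison, 0 were higher by 2-fold in either, and 6 were lower in each, beside 6.64% and 4.89% of all genes: Hoxb1, Dll1, Dll3, Amot, Fst and Frzb. All 6 were also at least 2-fold higher at day 4 than at day 0 in control cells, and Hoxb1, Dll1 and Fst are known from the neural tube too. The list had a median of -0.16 in the Chd4 line and -0.19 in the Mbd3 line at day 4, or 0 in both with values under 41.4 set to it. At day 0 its medians against control were already -0.19 and -0.23, or 0 and -0.006 with the floor. The nascent mesoderm markers Msgn1, Mesp2, Kdr and Lhx1 summed to 210 in Chd4-knockdown, 167 in Mbd3-knockdown and 212 in control cells at day 4. T (Brachyury), also chosen as such a marker, matched no gene and was not analysed.

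Of 19 cardiac and lateral mesoderm genes, 14 entered in the Chd4 and 13 in the Mbd3 comparison, and 1 was higher and 2 lower by 2-fold in each. Of all genes, 5.08% were higher and 6.64% lower in the Chd4 comparison, and 3.44% and 4.89% in the Mbd3 comparison. Bmp4 was higher by 2-fold in both knockdowns at day 4, with 372 in Chd4-knockdown, 203 in Mbd3-knockdown and 95.7 in control cells. Tbx20 and Isl1, which act in heart and in motor neurons, were lower in both. Isl1 had 36.4, 38.0 and 179, or at least 4.33-fold lower in both, since the knockdown values lay under the floor. The heart factor Nkx2-5 had 112, 110 and 83.4 in Chd4-knockdown, Mbd3-knockdown and control cells, and Hand1 had 49.9, 48.4 and 34.8. Of the contractile genes, Actc1 had 49.4, 49.8 and 38.6 and Tnnt2 had 69.3, 54.0 and 54.0, all under 2-fold. Myl7 and the heart factor Tbx5 were below 41.4 on all 3 arrays of day 4. The cardiac and lateral mesoderm list had a median of 0.08 in the Chd4 line and 0.07 in the Mbd3 line, or 0 in both with the floor.

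Of 19 definitive endoderm genes, 12 entered in each knockdown at day 4. In the Chd4 knockdown 1 was higher by 2-fold, namely Lefty1, and in the Mbd3 knockdown 4 were, namely Cldn6, Epcam, Prdm1 and Lefty1, beside 5.08% and 3.44% of all genes. Lower were Cxcr4 in both and Gpc4, a glypican, in the Chd4 knockdown (109, against 223 in control cells), beside 6.64% and 4.89% of all genes. The list medians were -0.03 in the Chd4 line and 0.06 in the Mbd3 line, or 0 in both with the floor. Cldn6, a tight junction gene, had 160 in Chd4-knockdown, 310 in Mbd3-knockdown and 93.1 in control cells. Prdm1, a transcriptional repressor, had 173, 327 and 101 at day 4, and 235, 319 and 175 at day 0. Epcam, an epithelial adhesion gene that stem cells express as well, had 398, 555 and 211 at day 4, and 557, 456 and 438 at day 0. All 3 genes were thus lower at day 4 than at day 0 in control cells, and none differed by 2-fold between the days in the Mbd3 line. In the same list Cxcr4, a chemokine receptor of endoderm and of neural cells, had 123, 162 and 802 at day 4. Cer1, a secreted antagonist and a defining endoderm gene, was below 41.4 in all, with 28.9, 27.4 and 29.4 at day 4. The definitive endoderm markers Cxcr4, Cer1, Foxa1 and Trh summed to 990 in Chd4-knockdown, 1259 in Mbd3-knockdown and 1856 in control cells at day 4. At day 0 they summed to 1868, 2925 and 2407. Trh alone made up 780, 1001 and 940 of the day 4 sums.

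Several signals that induce mesoderm and endoderm were higher than control in both knockdowns at day 4. Of 21 genes of this kind, 20 entered in each knockdown at day 4, and 6 were higher by 2-fold and 1 lower. Of all genes, 5.08% were higher and 6.64% lower in the Chd4 knockdown, and 3.44% and 4.89% in the Mbd3 knockdown. The list median was 0.19 in the Chd4 line and 0.21 in the Mbd3 line, or 0.15 and 0.21 with the floor. Nodal, the ligand that induces Eomes, Mixl1 and Gsc in the embryo, had 242 in Chd4-knockdown, 226 in Mbd3-knockdown and 88.6 in control cells. Foxh1, a cofactor of its SMAD effectors, had 404, 364 and 144, and Gdf3, a related ligand, had 312, 253 and 109. The feedback inhibitors Lefty1 and Lefty2 and the ligand Bmp4 completed the 6, and the receptor gene Acvr2a was the 1 lower. In control cells Nodal, Lefty1, Lefty2, Gdf3 and Bmp4 were each at least 2-fold lower at day 4 than at day 0. In the Chd4 line 2 genes of the list were higher by 2-fold between the days and 2 lower, namely Lefty2 (274 against 573) and Bmp4 (372 against 770). In the Mbd3 line 0 were higher and 2 lower, namely Tdgf1 and Bmp4 (203 against 481). Nodal had 242 at day 4 against 234 at day 0 in the Chd4 line, and 226 against 246 in the Mbd3 line. Foxh1 had 404 against 317 in the Chd4 line and 364 against 340 in the Mbd3 line. Gdf3 had 312 against 323 and 253 against 381 in the same order of lines, and Lefty1 had 427 against 472 and 446 against 240. Lefty2 had 247 against 157 in the Mbd3 line. The day 4 differences in Nodal stood beside log2 differences from control of 0.39 and 0.34 in Eomes, 0.02 and 0.26 in Mixl1, and -0.09 and 0.06 in Gsc, for the Chd4 and Mbd3 knockdowns. All comparisons at day 4 share the control array. Among stem cell markers, Zfp42 had 1354 in Chd4-knockdown, 1340 in Mbd3-knockdown and 330.0 in control cells at day 4. Nanog, a stem cell factor, had 1534, 1454 and 768. The 5 stem cell markers summed to 4270, 4349 and 2642 at day 4, and to 6118, 5765 and 6163 at day 0, in the same order of lines. Of the 5, Sox2 was the 1 that was not higher than control in either knockdown at day 4. Between the days all 5 were lower at day 4 in every line. The part of stem cells in the day 4 differences was not tested. At day 0, the WNT effector gene Lef1 had 69.1 in Chd4-knockdown, 152 in Mbd3-knockdown and 170 in control cells.

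**Figure D4:**
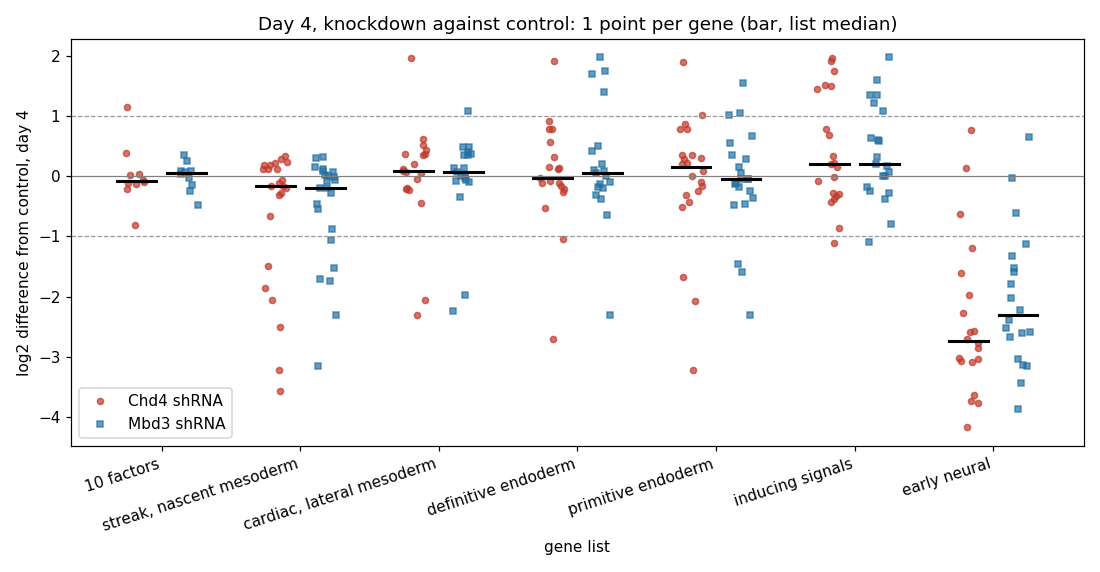
Log2 difference from control at day 4 (vertical axis) in the Chd4 and the Mbd3 knockdown, with 1 point per gene, for the 10 factors and 6 gene lists; bars are list medians and dashed lines mark 2-fold. The medians of the 10 factors, -0.08 and 0.05, lie near 0, those of 20 early neural genes at -2.74 and -2.31.

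Early neural genes served as the comparison. Of 20, 19 entered in each knockdown at day 4, and 17 were lower by 2-fold and 0 higher. Of all genes, 6.64% were lower and 5.08% higher in the Chd4 knockdown, and 4.89% and 3.44% in the Mbd3 knockdown. The list medians were -2.74 and -2.31, or -2.60 and -2.31 with the floor. Between the days the early neural median was 0.32 in Chd4-knockdown, 0.62 in Mbd3-knockdown and 2.71 in control cells, where that of the 10 factors was -0.11, 0.05 and -0.08. Dbx1, a homeobox gene, had 39.5 in Chd4-knockdown, 49.0 in Mbd3-knockdown and 711 in control cells at day 4, and the homeobox genes Meis1 and Hoxb2 had 63.7, 94.9 and 848, and 40.9, 47.0 and 510. Meis2 had 139, 190 and 1145, and the growth factor gene Ptn 79.9, 167 and 676.

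Further list genes were past 2-fold between the days. Trh, the precursor of thyrotropin-releasing hormone in the definitive endoderm list, had 780 at day 4 and 1671 at day 0 in Chd4-knockdown, 1001 and 2737 in Mbd3-knockdown, and 940 and 2237 in control cells. It was thus lower at day 4 in all 3 lines, as was Spink1, a protease inhibitor gene, whose day 4 values all lay under 41.4. Lrp2, an endocytic receptor of primitive endoderm, had 436 and 163 in Chd4-knockdown, 417 and 127 in Mbd3-knockdown, and 344 and 211 in control cells. Serpinh1, a collagen chaperone, had 356 and 231 in Chd4-knockdown, 328 and 146 in Mbd3-knockdown, and 424 and 125 in control cells. Among the signals, Smad3, an effector of Nodal, had 146 and 59.96 in Chd4-knockdown, 152 and 85.9 in Mbd3-knockdown, and 265 and 81.5 in control cells. Tdgf1, the Nodal coreceptor Cripto, had 1834 and 2961 in Chd4-knockdown, 1229 and 2547 in Mbd3-knockdown, and 1064 and 3163 in control cells.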

How the data were processed

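Total RNA of 6 groups of mouse embryonic stem cells, 1 sample each, was labelled with biotin and hybridized to Mouse Gene 2.0 ST arrays, per the labels' protocols. The authors deposited intensities between 17.4 and 7980, on a linear scale. The submitters' processing notes name RMA, with no version; RMA subtracts background, equalizes the arrays by quantiles and summarizes probe sets. The series design text names GeneSpring GX 12.6.1. For the genome build, the sources used here give nothing.

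Intensities were put on the log2 scale and not scaled again. The platform annotation gives 1 gene symbol to 23521 of the 34351 probe sets, several to 1814 and none to 9016; the first kind gave 22180 genes, each represented by its brightest probe set. For 23328 of these probe sets the symbol was taken from RefSeq through the gene ID. Samples were grouped by the labels. Differences between 2 arrays had no test; genes were counted past 2-fold where the brighter array reached its median. limma 3.58.1 (R 4.3.3) was used for a linear model with shRNA and day as additive terms, with Benjamini-Hochberg adjustment over all genes tested; the step was tested on simulated data. The labels do not say how many cultures a sample holds; p-values do not measure the spread between cultures. Of 136 symbols in the gene lists, 132 matched; the others were not analysed here. All 10 factors were named, and from each list and comparison up to 3 genes with the largest difference past 2-fold (a gene may be described in 1 of its comparisons), with the 3 genes most like a factor past 2-fold; further list genes were named after their values were seen. The 10 factors, the lists and the floor were chosen with earlier results of these data known. Alternatives changed the scale, floor, normalization, filter, probe set choice and threshold. The remaining computation ran in Python 3.11.15 with pandas 2.3.3.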

Additional observations from a re-analysis of the deposited data

Results flagged for a closer look

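For Gata6 and Sox7, the log2 effect had opposite signs in 2 lines and differed by at least 0.5 between them. With 1 array per group these differences were not tested. In most pairs 1 of the 2 effects was near 0, and 4 of the 6 intensities of each gene lay below 41.4, the highest array median, so each gap is also given with values under 41.4 set to it.

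The gap of Gata6 between the lines in the step from day 0 to day 4 was 0.58 for the Chd4 knockdown minus control and 0.53 for the Chd4 knockdown minus the Mbd3 knockdown; with the floor both were 0.50. Against control at day 0, the Gata6 gap between the Chd4 and Mbd3 knockdowns was 0.57, or 0.13 with the floor. The Sox7 gap between the same 2 was 0.64 at day 0, or 0.05 with the floor. In the step between the days the Sox7 gap between the Chd4 and Mbd3 knockdowns was -0.50, or -0.05 with the floor. The Sox7 gaps thus rest on intensities under the array medians.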

How the results depend on the processing

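The count of factors past 2-fold stayed the same in all 7 comparisons when the arrays were normalized by quantiles again, when they were centred on their medians and with no filter on dim genes. The mean over probe sets could not change it, since each factor has 1 probe set. With 16 subtracted before log2, which widens the folds of dim genes, Gata6 passed in Chd4-knockdown against control cells at day 0, a count of 1 in place of 0. Sox7 passed as lower in Mbd3-knockdown against control cells at day 0, and Foxa2 as higher between day 4 and day 0 in control cells, each also 1 in place of 0. Of all genes, 324 in place of 169 (Chd4) and 206 in place of 91 (Mbd3) then passed against control at day 0. In the Mbd3 knockdown at day 4, 1711 in place of 1133 passed. Between the days, 642 in place of 383 (Chd4) and 640 in place of 360 (Mbd3) passed. In control cells between the days, the comparison of Foxa2, 1125 of 13831 genes were higher by 2-fold without the subtraction. This count is not at the setting in which Foxa2 passed. Nothing particular to Gata6, Sox7 or Foxa2 is read from the counts with the subtraction. With values under 41.4 set to it, the count in Chd4-knockdown against control cells at day 4 was 0 in place of 1, since the Gata6 difference was 0.64. At a 1.5-fold threshold, that count was 2 (Gata6 higher, Foxa2 lower), and Sox7 in the Mbd3 knockdown at day 0 and Foxa2 between the days in control cells passed, 1 each. Of all genes, between 668 and 3937 passed it. The lower count was that of the Mbd3 knockdown against control at day 0 (91 at 2-fold). The higher was that of day 4 against day 0 in control cells (1775 at 2-fold). In Chd4-knockdown against control cells at day 4, 697 of 13733 genes were higher and 912 lower at 2-fold, a stricter threshold than 1.5-fold. Nothing particular to Gata6, Sox7 or Foxa2 is read from the 1.5-fold counts. The additive fit called 0 factors under all its alternatives. In the knockdown lines alone it called 683 of 12926 genes between the days and 0 of the 6 factors tested. No paired analysis was possible because the samples carry no replicate numbers, apart from the additive fit, which sets day 4 beside day 0 within each line.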

Other observations

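Markers of other cell types were read beside the 10 factors. The fibroblast markers Col1a1, Col1a2, Col3a1, Thy1 and Dcn summed to 258 in Chd4-knockdown, 241 in Mbd3-knockdown and 267 in control cells at day 4, and to 340, 256 and 279 at day 0. On each array 3 of the 5 were above 41.4. The trophoblast markers Cdx2, Elf5, Krt7, Hand1 and Ascl2 summed to 241 in Chd4-knockdown, 356 in Mbd3-knockdown and 205 in control cells at day 4, and to 269, 261 and 289 at day 0. Ascl2, a factor of the placenta, was highest of them in the Mbd3 knockdown at day 4, at 146. The share of other cells in these values was not tested.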
